A study of Mus musculus with 4 samples.

Results

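The 10 genes described here encode the transforming growth factor beta (TGF-beta) ligands Tgfb1, Tgfb2 and Tgfb3, the receptors Tgfbr1, Tgfbr2 and Tgfbr3, and the latent binding proteins Ltbp1, Ltbp2, Ltbp3 and Ltbp4. They were read through the 24 probe sets that the platform annotation assigned to one of these genes alone. The array measured 18193 genes in this way, and 13046 of them, all 10 members included, were bright enough to be tested. Total RNA from 2 ureter tumor samples and 2 normal ureter samples of C57Bl/6 mice aged 6 to 8 weeks was hybridized to Affymetrix Mouse Genome 430 2.0 arrays, 1 array per sample, in a study of Notch signaling in urothelial cancer. The labels state on all 4 samples a treatment of R26rtTA;teto-Cre;Ncstnf/f mice with doxycycline for 1 week from 3 weeks of age, and do not give the genotype of each sample. In such mice the Rosa26 locus, which is active in most cell types, expresses rtTA, which with doxycycline switches on the teto-Cre transgene. Loss of Ncstn (nicastrin, a gamma-secretase subunit) therefore need not be limited to urothelium. The sample titles call the 2 samples of each group biological replicates. The labels do not name the animals or say whether any were pooled. The p-values below reflect variation among these 4 arrays, in which biological and technical parts cannot be separated.

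TGF-beta ligands are made as precursors, and the cut propeptide stays wrapped around the mature ligand and keeps it latent. Latent binding proteins attach this complex to fibrillin microfibrils of the matrix, from which integrins and proteases release it. The free ligand binds the type II receptor Tgfbr2, which phosphorylates the type I receptor Tgfbr1, and Tgfbr1 passes the signal to Smad2 and Smad3. Tgfbr3, or betaglycan, is a coreceptor without kinase activity that binds all ligands and presents Tgfb2 in particular. In epithelium the pathway slows division, while in stroma it drives matrix production.

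The upstream sequences of 3 members are shown because the ligands Tgfb1 and Tgfb2 gave different readings and because Tgfbr1 had the smallest p-value among the members. Each run is the 250 bases before a RefSeq transcription start, read 5′ to 3′ on the strand of the gene, from build GRCm38.p6. RefSeq entries were matched for 8 of the 10 members, and Tgfb3 and Tgfbr3 were not matched. The windows are chr7:25686752-25687001 on the plus strand for Tgfb1, chr1:186705990-186706239 on the minus strand for Tgfb2, and chr4:47352972-47353221 on the plus strand for Tgfbr1. The Tgfb2 window lies inside the annotated span of the gene, since another annotated start lies further upstream. Capitals mark matches to the 6 motifs searched.
Tgfb1: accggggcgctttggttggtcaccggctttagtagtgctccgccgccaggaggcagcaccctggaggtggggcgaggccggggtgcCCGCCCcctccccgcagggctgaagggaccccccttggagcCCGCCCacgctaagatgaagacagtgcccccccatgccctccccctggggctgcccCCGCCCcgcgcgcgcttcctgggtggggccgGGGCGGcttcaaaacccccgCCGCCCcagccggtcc
Tgfb2: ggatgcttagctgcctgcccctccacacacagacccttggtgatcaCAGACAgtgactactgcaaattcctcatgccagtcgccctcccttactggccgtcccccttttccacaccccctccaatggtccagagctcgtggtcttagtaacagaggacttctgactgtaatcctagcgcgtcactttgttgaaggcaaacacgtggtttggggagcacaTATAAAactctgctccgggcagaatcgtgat
Tgfbr1: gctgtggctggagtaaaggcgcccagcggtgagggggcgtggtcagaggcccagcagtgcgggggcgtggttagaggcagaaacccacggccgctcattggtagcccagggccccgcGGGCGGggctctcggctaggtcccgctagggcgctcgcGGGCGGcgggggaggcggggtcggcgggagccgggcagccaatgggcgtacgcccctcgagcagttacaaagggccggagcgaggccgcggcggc

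The motifs were searched on both strands as the GC box GGGCGG, the TATA box TATAAA, the AP-1 site TGANTCA, the cyclic AMP response element TGACGTCA, the Smad element CAGACA and the RBPJ site TGGGAA. None of these letter strings contains another. The Tgfb1 window held 5 GC boxes and no other motif of the 6. In the Tgfb2 window there was 1 TATA box, from -31 to -26 relative to the start, and 1 Smad element from -204 to -199. The Tgfbr1 window held 2 GC boxes. RefSeq gives Tgfbr1 another start inside the gene, whose window at chr4:47385966-47386215, with a GC content of 52.8%, held no GC box and 1 Smad element. GC boxes stood in 32.7% of 32817 such windows of all genes, TATA boxes in 12.4% and Smad elements in 17.1%. The GC content was 75.2% for Tgfb1, 53.6% for Tgfb2 and 74.8% for the Tgfbr1 window shown, beside a median of 52.4% over all windows. A match describes these letters only and is not a measured binding site.

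None of the 10 genes passed the limma test over all 13046 genes, and 2 receptors came closest. Tgfbr1 lay 2.74-fold above normal ureter and Tgfbr3 2.87-fold below it, with limma adjusted p = 0.0526 and 0.0534 at a threshold of 0.05. Over all genes 1.43% passed, 0.491% higher and 0.943% lower. At an unadjusted p under 0.05 there were 5 of 10 members, 4 higher (Tgfb2, Tgfb3, Tgfbr1 and Ltbp2) and 1 lower (Tgfbr3). Among all genes 21.5% did, 10.6% higher and 10.9% lower. A difference of at least 2-fold was reached by 6 of 10 members, 5 higher (the same 4 and Ltbp1) and 1 lower (Tgfbr3), where 21.9% of all genes reached it, 11% higher and 10.9% lower. The groups did not overlap for 7 members, with tumors higher for 6 and lower for 1, beside 29.4% and 27.7% of all genes. Counted over the 18 bright probe sets, tumors were higher for 10 and lower for 2, beside 25.4% and 31.8% of all probe sets above the filter. The median difference, as log2 of the signal plus 16, was 0.90 over the members and 0.03 over all genes tested. Without tumor replicate 1 the limma test called 6 members and 32.9% of all genes, and without tumor replicate 2 it called 8 members and 42.2% of all genes, since the remaining spread then came from the normal arrays alone. Ltbp3 was among the calls in both fits with opposite signs, -0.57 and 0.40. Without normal replicate 1 and 2 the differences were 1.47 and 1.44 for Tgfbr1, and -1.40 and -1.64 for Tgfbr3.

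**Figure D1:**
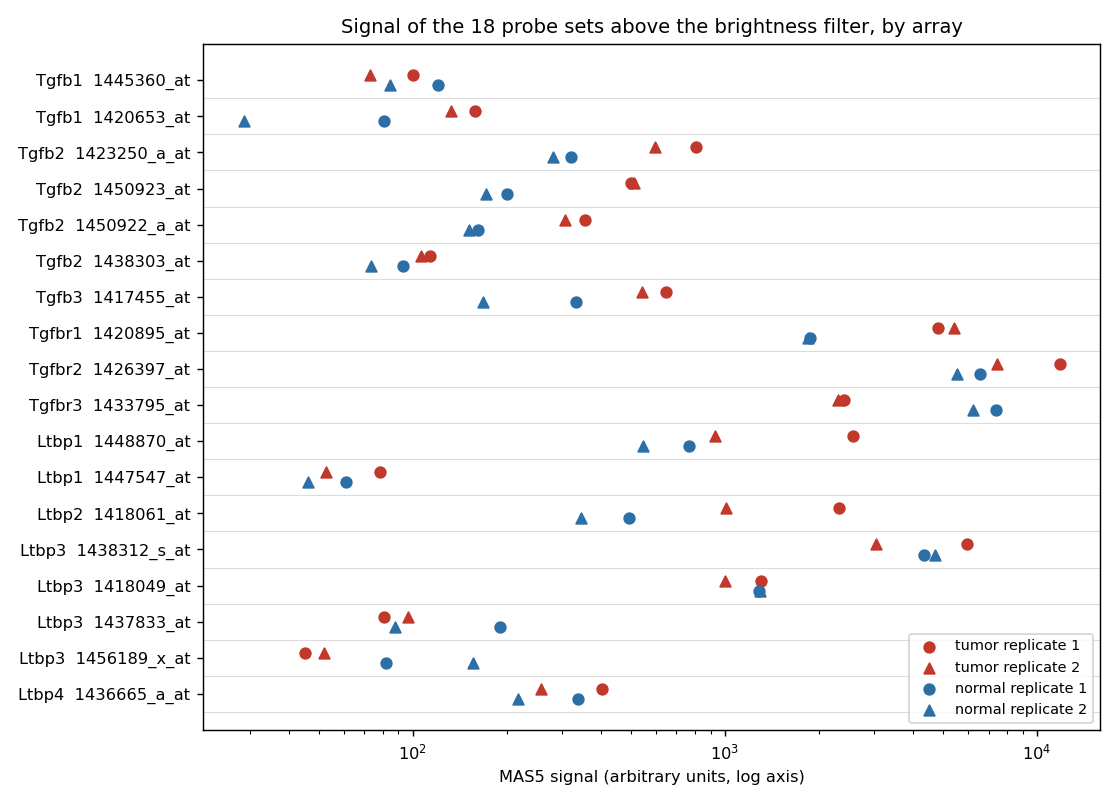
Deposited MAS5 signal on a log axis for each of the 18 probe sets above the brightness filter, with tumor arrays in red above normal arrays in blue, circles for replicate 1 and triangles for replicate 2. Both tumor symbols lie to the right of both normal symbols for 10 probe sets, the 4 of Tgfb2 among them, and to the left for 2, that of Tgfbr3 and a dim one of Ltbp3.

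Before the results by gene, the arrays themselves differed within the tumor group. Taken across genes, which are not independent replicates, the tumor arrays correlated at a Pearson's r of 0.786 and the normal arrays at 0.976. The tumor arrays were at least 2-fold apart for 23.2% of genes, and the normal arrays for 3.52%. RNA integrity, read as the Gapdh signal at the 3′ end over that at the 5′ end, gave 1.51 and 1.44 for tumors, against 0.920 and 0.923 for normal ureter. The same ratio for Actb lay the other way, at 2.47 and 2.63 for tumors, against 2.90 and 2.82 for normal ureter. The part of RNA integrity in the results was not tested. Precision is limited by having 2 arrays in each group, and an exact permutation test of 2 against 2 samples cannot go below p = 0.333. In bulk tissue, fewer cells of a type and less RNA per cell cannot be told apart.

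Among the ligands, Tgfb2 and Tgfb3 gave higher signals on both tumor arrays, and Tgfb1 gave readings that depended on the probe set. Tgfb2, an isoform prominent in development and at epithelial borders, gave 809 and 596 on tumor replicates 1 and 2, against 321 and 282 on normal replicates 1 and 2 (1423250_a_at). The lowest tumor value was above the highest normal value. The difference was 1.17 in log2 units (SE 0.27, n = 2 and 2, 95% interval 0.43 to 1.91), with limma adjusted p = 0.131 and an unadjusted limma p of 0.0116.

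The other probe sets of Tgfb2 showed how well that reading held along the gene. Probe set 1450923_at gave 500 and 510 in tumors, against 201 and 172 in normal ureter, a difference of 1.37. Probe set 1450922_a_at gave 355 and 307 in tumors, against 162 and 151 in normal ureter, a difference of 1.01. In both the groups were apart by more than either group's own range. These 3 probe sets were designed from a single sequence record, so they are not independent readings. The dimmer 1438303_at, from another record, gave 114 and 106 in tumors, against 93.1 and 73.2 in normal ureter, with a difference of 0.35. In a limma fit over all 27022 probe sets above the filter, the adjusted p-values of the 4 were 0.118, 0.0834, 0.136 and 0.541 in the order given.

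Tgfb3, which is common in mesenchyme, had 1 probe set, 1417455_at. It gave 646 and 541 in tumors, against 334 and 168 in normal ureter. The tumor arrays were close to each other, while normal replicate 1 was 1.99 times normal replicate 2. The difference was 1.26 (SE 0.40, n = 2 and 2, 95% interval 0.15 to 2.37, limma adjusted p = 0.198).

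Tgfb1, the isoform that immune cells and platelets release in quantity, had a pair of probe sets of nearly equal brightness that disagreed. Probe set 1445360_at, marginally brighter on the log scale and therefore used for the gene, gave 100.3 and 72.8 in tumors, against 120 and 84.6 in normal ureter. The groups overlapped, with a difference of -0.20 (SE 0.39, n = 2 and 2, limma adjusted p = 0.798). Probe set 1420653_at, which the annotation ties to the RefSeq mRNA, gave 158 and 133 in tumors, against 81.1 and 28.8 in normal ureter. There the groups did not overlap, tumors being higher, with a difference of 1.29 (SE 0.48, n = 2 and 2, adjusted p = 0.226 in the limma fit over all probe sets). Choosing the brighter probe set by the mean of the linear signal, an alternative chosen after seeing the data, puts 1420653_at in place of 1445360_at and turns the sign for Tgfb1. The Tgfb1 signals ran from 28.8 to 158, beside array medians of 85.0 to 107, and no direction is given for the gene.

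The receptors parted, with the type I receptor higher and the coreceptor lower on both tumor arrays. Tgfbr1, the signaling kinase, gave 4832 and 5439 in tumors, against 1876 and 1843 in normal ureter (1420895_at). The replicates of each group were close and the groups far apart. The difference was 1.46 (SE 0.17, n = 2 and 2, 95% interval 0.99 to 1.92), with limma adjusted p = 0.0526 and an unadjusted limma p of 0.000913. It passed at a pseudocount of 64 (limma adjusted p = 0.0489), with a filter at the 60th percentile (limma adjusted p = 0.0484) and when either tumor array was left out. It also met the rule of 2-fold and an unadjusted limma p under 0.05. In the other limma fits it did not pass, with adjusted p = 0.0891 without the limma trend and 0.142 with the replicate block. Without normal replicate 1 and 2 its differences were 1.47 and 1.44. The mean of its 3 probe sets, 2 of them under the filter, gave a difference of 0.51 (limma adjusted p = 0.353). The difference was 1.54 without tumor replicate 1 and 1.37 without tumor replicate 2.

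Tgfbr3, the coreceptor betaglycan, was the one member with both tumor arrays below both normal arrays. It gave 2408 and 2305 in tumors, against 7369 and 6252 in normal ureter (1433795_at). The difference was -1.52 (SE 0.18, n = 2 and 2, 95% interval -2.02 to -1.02), with limma adjusted p = 0.0534 and an unadjusted limma p of 0.000991. It passed with a filter at the 60th percentile (adjusted p = 0.0486) and without either tumor array, where the difference was -1.55 without replicate 1 and -1.49 without replicate 2. It also met the rule of 2-fold and an unadjusted limma p under 0.05. In the other limma fits it did not pass, with adjusted p = 0.0891 without the trend and 0.135 with the replicate block. Without normal replicate 1 and 2 its differences were -1.40 and -1.64. The mean of its probe sets gave -1.02 (limma adjusted p = 0.234).

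Tgfbr2, the type II receptor that first binds the ligand, gave 11827 and 7462 in tumors, against 6583 and 5552 in normal ureter (1426397_at). The groups did not overlap, but tumor replicate 2 was nearer to the normal arrays than to tumor replicate 1. The difference was 0.63 (SE 0.30, n = 2 and 2, 95% interval -0.19 to 1.46, limma adjusted p = 0.314), and it was 0.30 without tumor replicate 1.

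**Figure D2:**
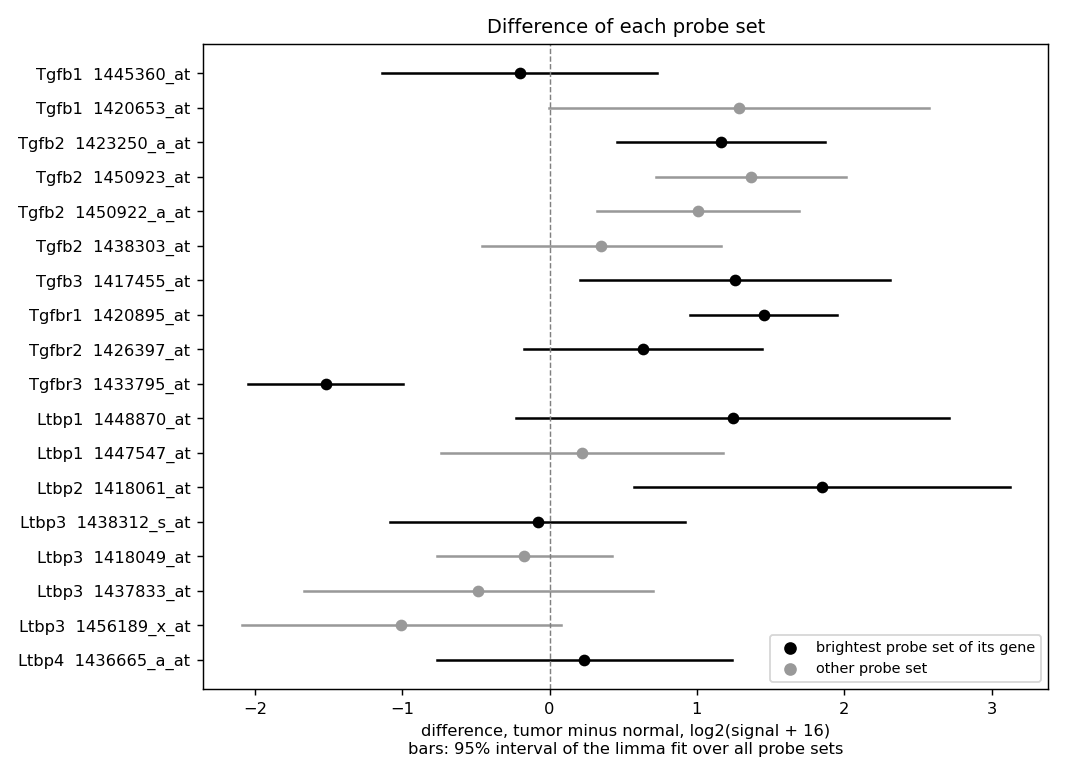
Difference of tumor minus normal ureter on the log2(signal + 16) scale for the same 18 probe sets, with 95% intervals from the limma fit over all 27022 probe sets above the filter. Black marks the brightest probe set of a gene and grey the others. The intervals of Tgfbr1 and Tgfbr3 lie on opposite sides of 0, and the 2 probe sets of Tgfb1 lie on opposite sides with intervals that overlap.

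Of the latent binding proteins, Ltbp1 and Ltbp2 were above normal ureter on both tumor arrays, far more on replicate 1, and Ltbp3 and Ltbp4 overlapped. Ltbp2 binds microfibrils but, unlike the others, is not known to carry latent TGF-beta. It gave 2327 and 1008 in tumors, against 493 and 346 in normal ureter (1418061_at). The difference was 1.85 (SE 0.49, n = 2 and 2, 95% interval 0.51 to 3.19, limma adjusted p = 0.158). This was the largest difference in size among the 10 members.

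Ltbp1, which carries latent ligand to the matrix, gave 2580 and 931 in tumors, against 766 and 545 in normal ureter (1448870_at). Tumor replicate 2 was only slightly above normal replicate 1. The difference was 1.24 (SE 0.56, n = 2 and 2, 95% interval -0.30 to 2.79, limma adjusted p = 0.301), and 0.52 without tumor replicate 1. A dimmer probe set, 1447547_at, gave 78.6 and 52.7 in tumors, against 61.1 and 46.3 in normal ureter, and the groups overlapped.

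Ltbp3, a carrier of latent ligand known from bone and tooth, gave 5982 and 3048 in tumors, against 4348 and 4697 in normal ureter (1438312_s_at). The tumor arrays lay on opposite sides of the normal arrays. The difference was -0.08 (SE 0.38, n = 2 and 2, 95% interval -1.12 to 0.95, limma adjusted p = 0.924). The suffix of this probe set marks probes shared with other transcripts, and 1418049_at, with no such suffix, gave 1307 and 1004 in tumors, against 1284 and 1299 in normal ureter. Its difference was -0.17, and the dimmer 1437833_at and 1456189_x_at gave -0.48 and -1.01. For Ltbp4, an elastic fibre protein that carries latent Tgfb1, the signal was 404 and 257 in tumors, against 339 and 217 in normal ureter (1436665_a_at). The spread within each group exceeded the difference of 0.24 (SE 0.39, n = 2 and 2, 95% interval -0.83 to 1.30, limma adjusted p = 0.766).

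Most members had their higher tumor signal on the same array. Tumor replicate 1 was above tumor replicate 2 for 9 of 10 members, Tgfbr1 being the exception, where 51.2% of all genes had replicate 1 higher. Normal replicate 1 was above normal replicate 2 also for 9 of 10, Ltbp3 being the exception, where 50.7% of all genes did. The tumor arrays were at least 2-fold apart for 2 members, Ltbp1 (2.77 times) and Ltbp2 (2.31 times), and the normal arrays for none of the 10. The median member difference from the normal mean was 1.17 on tumor replicate 1 and 0.41 on tumor replicate 2.

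**Figure D3:**
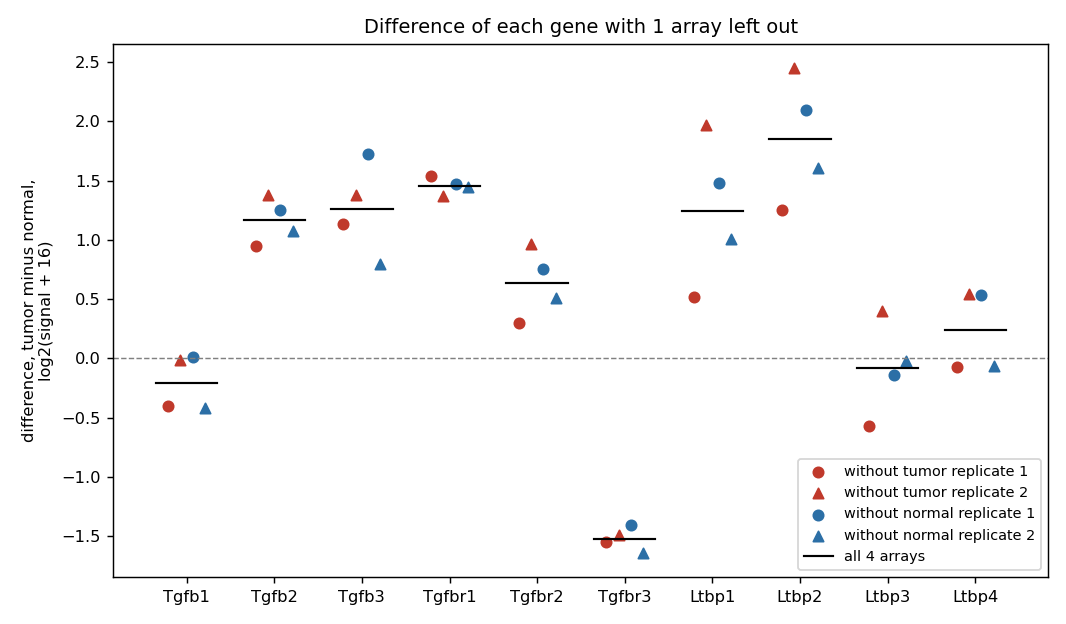
Difference of tumor minus normal ureter on the log2(signal + 16) scale for each member with all 4 arrays (black bar) and with 1 array left out (symbols). Tgfbr1 stays between 1.37 and 1.54 and Tgfbr3 between -1.64 and -1.40, while Ltbp1 runs from 0.52 to 1.97 and Ltbp3 and Ltbp4 cross 0.

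Genes that process, hold or free latent TGF-beta were measured for 16 of the 17 listed. Of these 1 rose, 0 fell and 15 did not pass, where 0.491% of all genes rose and 0.943% fell. Of the 16, 12 had both tumor arrays above both normal arrays, beside 29.4% of all genes. The median difference of the list was 1.25, beside 0.03 over all genes. Itgb6, the epithelial integrin subunit that activates latent Tgfb1 and Tgfb3, gave 1186 and 1083 in tumors, against 266 and 298 in normal ureter, and rose by 1.95 (SE 0.21, n = 2 and 2, limma adjusted p = 0.0496). Its call was lost under 9 of 15 alternatives, among them a pseudocount of 1, quantile normalization and leaving out either normal array, and the mean of its probe sets gave 0.80. The partner subunit Itgav gave 12344 and 15201 in tumors, against 4637 and 4700 in normal ureter, with a difference of 1.55 (adjusted p = 0.0607). The groups were again far apart. For the matrix activator Thbs1 the difference was 1.24 (adjusted p = 0.0721), and for the integrin subunit Itgb8, which also activates latent ligand, it was 2.01 (adjusted p = 0.124).

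Matrix partners of the latent complex were measured for 12 of 14 listed genes, of which 2 rose, 0 fell and 10 did not pass, with a median difference of 0.25. Over all genes 0.491% rose and 0.943% fell. Bgn, a small proteoglycan that binds TGF-beta, gave 19166 and 16769 in tumors, against 3933 and 3197 in normal ureter, and rose by 2.33 (SE 0.21, n = 2 and 2, limma adjusted p = 0.0425). Emilin1, an elastic fibre protein that restrains processing of the Tgfb1 precursor, gave 1268 and 1421 in tumors, against 287 and 281 in normal ureter, and rose by 2.18 (SE 0.21, n = 2 and 2, adjusted p = 0.0425). Each call was lost under 6 of 15 alternatives, which were median centring, averaged probe sets, no trend, the replicate block and either normal array left out. With averaged probe sets the differences were 2.48 for Bgn and 1.55 for Emilin1. The secreted protease Htra3 differed by -2.14 (adjusted p = 0.113) and fibronectin, Fn1, by 1.59 (adjusted p = 0.126). Fbn1 and Efemp2 were not analysed here.

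Receptor accessories and Smad genes gave 0 calls, where 1.43% of all genes passed. At an unadjusted limma p under 0.05, 10.6% of all genes were higher and 10.9% lower. Of 5 accessory receptors 0 passed the limma test, 1 was higher and 1 lower at an unadjusted p under 0.05, and the median was 0.14. Eng, an endothelial coreceptor, differed by 1.17 (adjusted p = 0.139) and Bambi, a decoy receptor, by -0.82 (adjusted p = 0.177). Acvrl1, an endothelial type I receptor, and Tgfbrap1, a receptor-associated protein, had differences of 0.48 and 0.14. Of 13 Smads and regulators 0 passed, 3 were higher and 0 lower at an unadjusted p under 0.05, and the median was 0.30. Skil, a repressor that the pathway induces, differed by 1.44 (adjusted p = 0.133), the receptor Smad gene Smad3 one of 0.58 (adjusted p = 0.187), and the inhibitory Smad genes Smad7 and Smad6 differences of 0.82 and -0.65 (adjusted p = 0.199 and 0.276).

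Genes known to respond to TGF-beta were measured for 26 of 27 listed, and several also stand in the lists above. Of these 1 rose, 0 fell and 25 did not pass, where 0.491% of all genes rose and 0.943% fell. The gene of the list that rose was Itgb6. At an unadjusted p under 0.05, 10 were higher and 1 lower, beside 10.6% and 10.9% of all genes. The groups did not overlap for 18 higher and 3 lower genes, beside 29.4% and 27.7% of all genes, and the median difference was 0.96. Ccn2, a matrix-associated growth regulator, gave 6034 and 19877 in tumors, against 930 and 1006 in normal ureter, with a difference of 3.48 (SE 0.62, n = 2 and 2, limma adjusted p = 0.0955). It was higher on tumor replicate 2, whereas Timp1, an inhibitor of metalloproteinases, was higher on tumor replicate 1, with 9583 and 1709 in tumors, against 124 and 104 in normal ureter. Its difference was 4.97 (SE 0.89, n = 2 and 2, adjusted p = 0.0955). Acta2, the smooth muscle actin that TGF-beta also induces in fibroblasts, was the member of this list lower at an unadjusted p under 0.05, with 9957 and 18209 in tumors, against 35083 and 27665 in normal ureter.

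**Figure D4:**
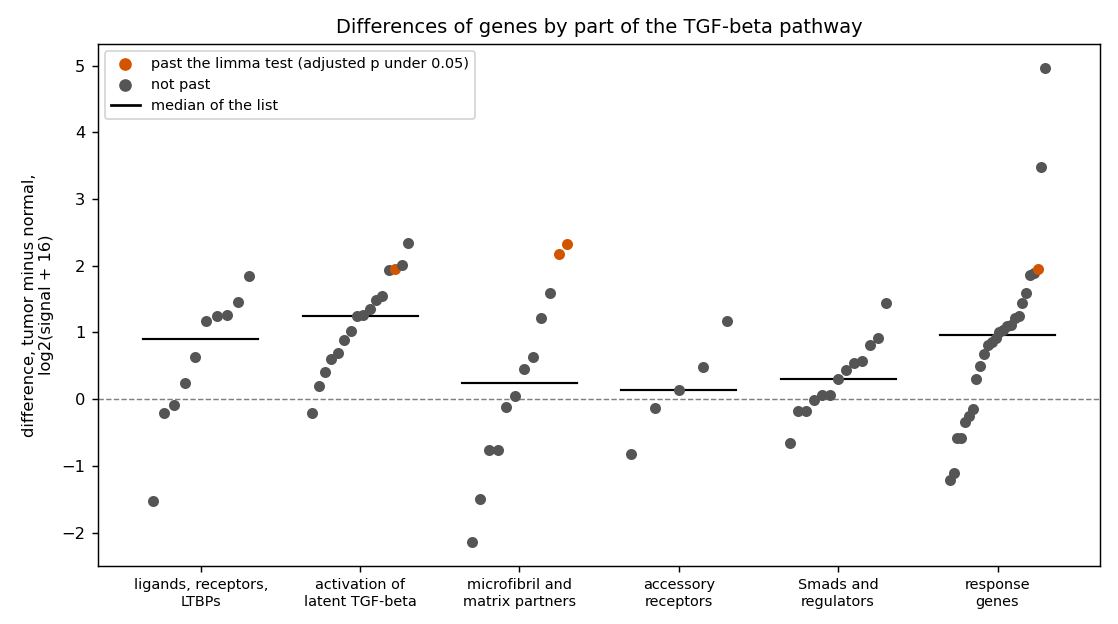
Difference of tumor minus normal ureter on the log2(signal + 16) scale for each tested gene of the 10 members and of 5 pathway lists, with genes past the limma test in orange and list medians as black bars. The medians are 0.90 for the members, 1.25 for activation, 0.25 for matrix partners, 0.14 for accessory receptors, 0.30 for Smads and regulators and 0.96 for response genes.

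Marker lists of several cell types differed between the groups or between the tumor arrays. Among all genes 29.4% had both tumor arrays above both normal arrays and 27.7% both below, while 0.491% passed higher and 0.943% lower. The labels describe isolated ureter epithelium, and the epithelial genes Epcam and Cdh1 were bright on all 4 arrays, with 17023 and 9994 for Epcam in tumors, against 4002 and 3371 in normal ureter, and 13206 and 9908 for Cdh1 in tumors, against 5777 and 6945 in normal ureter. They were the 2 of 14 genes on the urothelial list with both tumor arrays above both normal arrays, while 7 had both below, and the median difference of the list was -1.61. The uroplakin gene Upk3a fell by 6.76, Upk1b of the same family fell by 5.66, and the keratin gene Krt20 fell by 4.93. Krt5 and Trp63 of the same list lay above normal ureter on tumor replicate 1 and below it on tumor replicate 2. Krt5 gave 15780 and 628 in tumors, against 3415 and 5518 in normal ureter, and Trp63 gave 10167 and 440, against 2446 and 3847. Fat and smooth muscle markers were also strong in normal ureter. The fat list, with all 7 measured genes below normal ureter on both tumor arrays and 2 past the test, summed to 38356 and 6263 in tumors, against 260784 and 279870 in normal ureter, and Adipoq gave 9631 and 6.28 in tumors, against 81675 and 84064 in normal ureter. The smooth muscle list, with 8 of 9 genes below, summed to 17606 and 27289 in tumors, against 59649 and 47777 in normal ureter, and Myh11 fell by 3.37. The fat and smooth muscle sums and 7 of the 14 urothelial genes were lower on both tumor arrays, as Tgfbr3 was. Tumor replicate 1 was above tumor replicate 2 for the fat sum and below it for the smooth muscle sum, while Tgfbr3 gave 2408 and 2305. The part of these lists in the Tgfbr3 result was not tested.

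Fibroblast markers were mixed and macrophage markers were higher on both tumor arrays. The mast cell, T and NK cell and neutrophil lists were highest on tumor replicate 1. The fibroblast list summed to 174053 and 80426 in tumors, against 126627 and 97907 in normal ureter. On both tumor arrays 5 of 12 genes were above and 1 below, beside 29.4% and 27.7% of all genes. Of the 12, 0 passed the test. Pdgfra and Pdgfrb had differences of 0.82 and 1.44, whereas Dpt, Lum, Dcn and Pi16 had differences of -1.80, -1.495, -0.76 and -0.27. The summed signal was highest on tumor replicate 1, as was the signal of every member except Tgfb1, Tgfbr1 and Tgfbr3. The macrophage list, with 9 of 9 genes above and 4 past the test, summed to 49896 and 38954 in tumors, against 11340 and 9589 in normal ureter. Its marker Csf1r rose by 1.96 and Adgre1 had a difference of 1.54. The list was higher on both tumor arrays, as were Tgfb2, Tgfb3, Tgfbr1, Tgfbr2, Ltbp1 and Ltbp2. Mast cell, T and NK cell and neutrophil lists stood out on tumor replicate 1, with sums of 109965, 18393 and 23636, beside 688, 931 and 1554 on tumor replicate 2. In normal ureter the sums were 804 and 680 for mast cells, 845 and 792 for T and NK cells, and 366 and 287 for neutrophils. The neutrophil sum was thus above normal ureter on both tumor arrays, as were 4 of its 5 tested genes, beside 29.4% of all genes. Most of the T and NK cell sum on tumor replicate 1 was Gzma, at 15262. Of the 8 tested genes of that list, 5 were above on both tumor arrays and 1 below. The one below was Cd8a, with 62.2 and 67.2 in tumors, against 194 and 127 in normal ureter, a difference of -1.10. Mcpt2, a mast cell protease, gave 52197 and 33.7 in tumors, against 2.21 and 2.43 in normal ureter. The differences were 5.24 for the mast cell gene Mcpt1, 1.23 and 1.33 for the T cell genes Cd2 and Cd3d, and 3.79 and 3.92 for the neutrophil genes S100a8 and S100a9, with 0 of these past the test. The part of these cell types in the results was not tested.

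Of the remaining lists, the plasma and B cell list was higher on both tumor arrays and the kidney tubule list was high on tumor replicate 2. Kidney tubule markers summed to 1406 and 93926 in tumors, against 10104 and 16668 in normal ureter, with 57258 for Umod and 3851 for Slc34a1 on tumor replicate 2. Without that array the differences were 1.38 for Tgfb2, 1.37 for Tgfbr1, -1.49 for Tgfbr3 and 2.45 for Ltbp2, beside 1.17, 1.46, -1.52 and 1.85 over 4 arrays. The plasma and B cell list summed to 89724 and 58764 in tumors, against 19015 and 15631 in normal ureter, with a median difference of 3.74, where Jchain rose by 5.31 and Mzb1 had a difference of 4.55 (adjusted p = 0.0521). Endothelial markers summed to 7652 and 7638 in tumors, against 9535 and 8524 in normal ureter, with a median difference of -0.39. On both tumor arrays 0 of 8 genes were above and 3 below, beside 29.4% and 27.7% of all genes. Of the 8, 0 passed the test. The differences were 0.49 for Pecam1, -0.07 for Cdh5, -0.93 for Kdr and -0.52 for Cldn5. Platelet markers summed to 1793 and 2606 in tumors, against 1982 and 1377 in normal ureter, with differences of 0.12 for Pf4 and 0.71 for Ppbp. Of 5 nerve and Schwann cell genes 3 were measured and 0 passed.

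**Figure D5:**
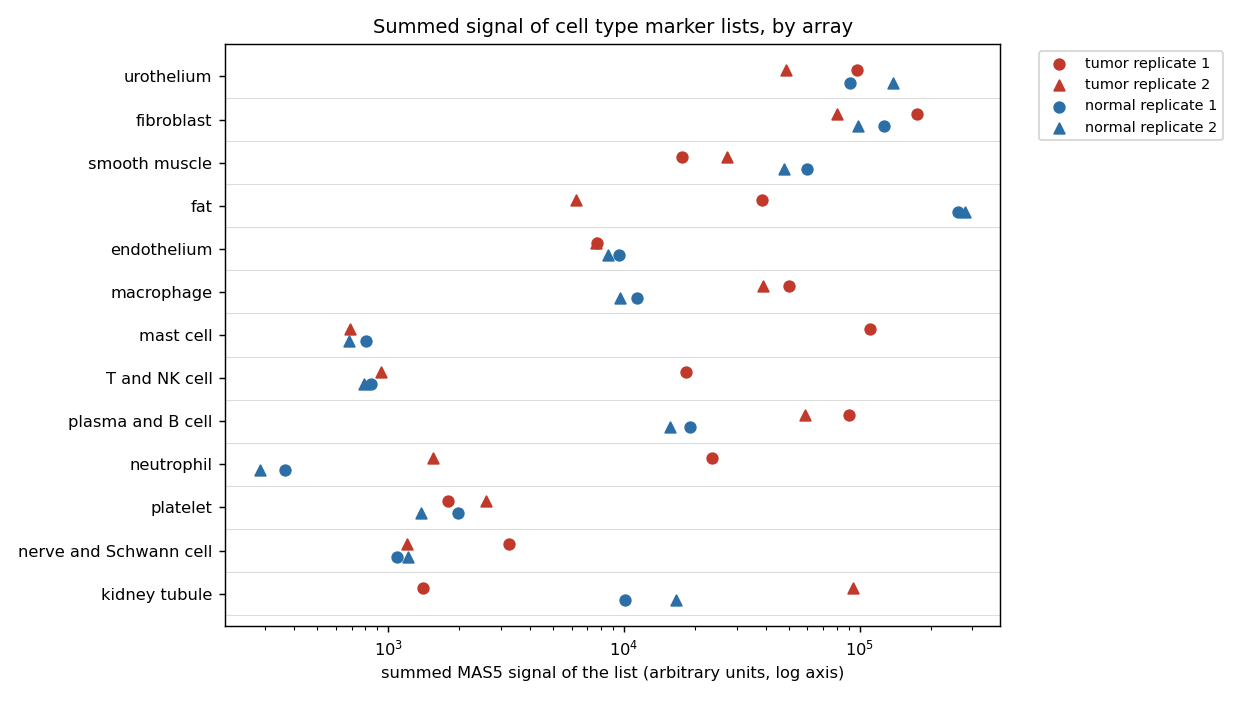
Summed MAS5 signal on a log axis for 13 lists of cell type markers, with tumor arrays in red above normal arrays in blue, circles for replicate 1 and triangles for replicate 2. Fat and smooth muscle sums are lower and macrophage sums higher on both tumor arrays, and the kidney tubule sum of 93926 stands apart on tumor replicate 2.

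The genes most like each ligand over the 4 arrays were found by the Euclidean distance between profiles of log2(signal + 16) after each gene's mean was subtracted. For Tgfb2 these were Rgs10, Ap1s2 and Ikzf4 at distances of 0.057, 0.065 and 0.070, and 529 genes lay within 0.5. Those nearest to Tgfb3 were Pigt, Piezo2 and Tbxas1 at 0.081, 0.14 and 0.21, with 96 genes within 0.5. The profile of Tgfb1, from 1445360_at, was nearest to Mtf1, Slfn8 and Dtx4 at 0.040, 0.048 and 0.065, with 2114 genes within 0.5. With 4 arrays many genes share such a profile, and the distances are a description.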

How the data were processed

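One-colour array data of 2 ureter tumor and 2 normal ureter samples were used. The intensity values deposited for each probe set are linear MAS5 signals, as the submitters' processing notes name the tool, and with the top and bottom 2% of probe sets left out every array averaged 500. No detection calls were used here. Of 45101 probe sets 64 controls were left out, and 34945 had 1 gene symbol, updated through RefSeq for 34741. Tests used log2 of the deposited intensity plus 16, and this pseudocount shrinks differences of dim genes. Each gene was read from its probe set with the highest mean on that scale, and genes at or above the 40th percentile, a signal of 54.6, were tested with limma 3.58.1 in R 4.3.3 (intensity trend, two-sided, Benjamini-Hochberg over 13046 genes, 2 residual and 2.11 prior degrees of freedom). The fit was also run on simulated data with spreads shuffled over genes and equal in both groups, unlike these arrays, and no result rests on that run. The members, gene lists, marker lists and tests were chosen with earlier results of these data known. Named genes are all members, the list genes past the threshold and, in each pathway list, the 4 with the smallest unadjusted p, the 3 most like each ligand, and the first 2 markers of each list where analysed. Acta2 among the response genes, and the further urothelial, fibroblast, endothelial and T and NK cell markers, were chosen after their values were seen. Replicate numbers shared between groups were compared by the correlation of deviations from the group means (r = 0.039). With 2 arrays in each group the deviations of a gene mirror each other, so this cannot decide whether samples were paired. The labels give no pairing, and the main fit used none. Figures were drawn with matplotlib 3.10.9.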

Additional observations from a re-analysis of the deposited data

How the results depend on the processing

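Results were recomputed with 1 or 64 as pseudocount, with quantile or median scaling, unfiltered or filtered at the 60th percentile, from averaged or separate probe sets, with the trend dropped or robust, with the replicate block, by a rule of 2-fold and an unadjusted p under 0.05, with each array left out and, as a choice made after seeing the data, with brightness by the linear mean. Of the recomputed differences of single members, 136 kept their direction and side of the threshold, 16 kept their direction and passed it, and 7 turned sign, of which Ltbp3 without tumor replicate 2 also passed. All genes past the limma test numbered 187, and 35 with median centring, 104 with averaged probe sets, 2 without the trend (2739 at an unadjusted p under 0.05), 1880 (14.4%) by the rule of 2-fold and unadjusted p and 0 to 5502 with 1 array left out. Tested on their own, 473 of 27022 probe sets passed. At a pseudocount of 64, 249 of 13046 genes passed, and with the filter at the 60th percentile 237 of 10247 genes did. With the replicate block 0 passed and 2253 had an unadjusted p under 0.05, while 0 members passed with it or without it. Members past the test numbered 0, and 1 at a pseudocount of 64 (Tgfbr1, 1.43), 2 at the 60th percentile (Tgfbr1, 1.46, and Tgfbr3, -1.52), 5 by the rule of 2-fold and unadjusted p and 0 to 8 with 1 array left out. Median centring moved the median of all genes to 0.22, from 0.03 as deposited, and turned Ltbp3 to 0.11. Tgfb1 turned to 0.54 with averaged probe sets and to 1.29 with brightness by the linear mean, since these bring in its other probe set. Averaging also mixed dim probe sets into Tgfbr1, with a value of 0.51. With 1 array left out the differences ran from -0.42 to 0.015 for Tgfb1, 0.95 to 1.38 for Tgfb2, 0.79 to 1.72 for Tgfb3, 1.37 to 1.54 for Tgfbr1, 0.30 to 0.97 for Tgfbr2, -1.64 to -1.40 for Tgfbr3, 0.52 to 1.97 for Ltbp1, 1.25 to 2.45 for Ltbp2, -0.57 to 0.40 for Ltbp3 and -0.073 to 0.55 for Ltbp4. In those fits the lone array of a group has no spread of its own and borrows that of the other group. Signals near the filter limit, as for Tgfb1, are limited by background.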

Other observations

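The 6 member probe sets under the brightness filter were not tested. Of these, 1 had both tumor arrays above both normal arrays, 1 had both below and 4 overlapped. The one above was 1422019_at of Tgfbr2, with 39.9 and 51.6 in tumors, against 36.2 and 6.46 in normal ureter. The one below was 1420894_at of Tgfbr1, with 22.4 and 21.0 in tumors, against 52.1 and 25.4 in normal ureter. This last direction is opposite to that of the bright Tgfbr1 probe set. The overlapping ones were another of Tgfbr1, another of Tgfbr2, and 1 each of Tgfbr3 and Ltbp1, and their signals ran from 2.91 to 63.6 in tumors, against 3.93 to 54.1 in normal ureter. Each of the 3 receptors had 1 probe set above the filter.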
